A study of Mus musculus with 12 samples.

Results

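Pparg encodes PPARγ, a nuclear receptor that pairs with a retinoid X receptor (RXR) and switches on genes for the uptake, transport and storage of fatty acids when it binds lipid ligands. In airway macrophages (AMs), PPARγ is induced by GM-CSF during their development, and it is needed for AM identity and for the clearance of surfactant lipid. The genes described here are Pparg itself and 7 genes known as its targets in lipid handling: the fatty acid carriers Fabp4 and Fabp5, the scavenger receptor Cd36, lipoprotein lipase (Lpl) and its inhibitor Angptl4, the lipid droplet coat gene Plin2, and Pdk4, a kinase that turns off pyruvate dehydrogenase and so spares glucose when fat is burned. These 8 genes were taken by name from the 20551 genes of the count table, and all 8 were found and passed the filter on low counts that left 13729 genes for testing.

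RNA was sequenced from AMs of wild-type (WT) mice and Scnn1b-Tg mice, all of the strain C57BL/6 and 6 weeks old, with WT littermates as controls. Scnn1b-Tg mice carry a transgene for a subunit of the epithelial sodium channel behind a promoter of airway club cells, which dehydrates the airway surface and leaves mucus plugs, so the transgene is aimed at the airway epithelium and not at AMs. Lavages of 3 to 4 animals were pooled, and each of 6 pools (WT 16, 17 and 18, Scnn1b-Tg 17, 18 and 19) gave 1 library from cells kept in medium and 1 from cells exposed for 12 h to lipopolysaccharide (LPS) from Pseudomonas aeruginosa at 100 ng/ml, which makes 4 groups of 3 libraries. WT 16, WT 17 and Scnn1b-Tg 17 were prepared in library batch 1 and the other pools in batch 2. The labels speak of lavage cells that adhered to plastic, whereas the methods of the study describe sorting of AMs for sequencing, so the gating of these libraries is uncertain.

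Libraries held 48191248 to 60896505 deposited counts. Levels are given as CPM, the counts of a gene scaled by TMM to a library of 1000000 counts, as mean ± SD over 3 libraries, and tests were made with edgeR's quasi-likelihood test with Benjamini-Hochberg adjustment over all 13729 genes at a threshold of 0.05. All 9 AM markers looked up were present, although Siglecf, one of the defining surface markers, went from 115.2 ± 5.13 to 11.14 ± 2.4 CPM with LPS in WT AMs and in Scnn1b-Tg AMs from 118.4 ± 13.5 to 6.47 ± 1.52 CPM. Fat cells and vessel cells also express several of the 8 genes. Of 7 adipocyte markers 2 were in the table, with sums of at most 0.358 CPM and Retn at 0 in all libraries, and of 7 endothelial markers 6 were in the table, with sums of at most 1.12 CPM and Tek at 0. Markers of B cells, of T and NK cells and of eosinophils each summed to at most 1.12 CPM. Other sums moved with the groups. The AM markers themselves summed to 11340 to 12250 CPM in WT medium, 8488 to 10560 CPM in WT LPS, 13360 to 16670 CPM in Scnn1b-Tg medium and 10160 to 15290 CPM in Scnn1b-Tg LPS libraries. Type II cell markers summed to 55.7 to 73.0, 39.1 to 63.6, 44.1 to 59.7 and 32.7 to 38.4 CPM in the same order, with no overlap between the treatments in Scnn1b-Tg AMs or between the genotypes with LPS. Markers of monocytes and interstitial macrophages summed to 11.9 to 18.1 CPM in medium and 2.80 to 4.14 CPM with LPS. Club cell markers summed to 38.5 to 74.4 CPM in WT libraries and 14.9 to 37.4 CPM in those of Scnn1b-Tg AMs, with no overlap between the genotypes in either treatment. The 4 of 6 neutrophil markers in the table summed to 12.4 to 14.7, 9.18 to 12.1, 18.1 to 22.2 and 12.4 to 16.2 CPM in the order above, with no overlap between treatments in either genotype or between genotypes in either treatment. This sum joins genes that moved in opposite directions: of 3 tested, 1 rose and 2 fell with LPS in each genotype. In WT AMs S100a8 rose from 2.87 ± 0.954 to 7.32 ± 1.71 CPM. Csf3r fell there from 6.53 ± 0.952 to 2.86 ± 0.713 CPM and Cxcr2 from 4.00 ± 0.364 to 0.186 ± 0.0923 CPM. The part of these cells in the differences below was not tested. The 3 subunit genes of the sodium channel together stayed at or below 1.14 CPM in every library, with no separation of the genotypes. All 6 cytokine and response genes used as a check of the LPS treatment (Tnf, Il1b, Cxcl1, Il6, Nos2 and Ccl3) rose with LPS in both genotypes.

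Because 7 of the 8 genes are classed as PPAR targets, the promoter sequence of each was looked up in RefSeq on the build GRCm38.p6. Windows of 250 bases before an annotated start were found for 4 of the 8 genes, Pparg, Cd36, Pdk4 and Plin2. Fabp4, Fabp5, Lpl and Angptl4 had no entry in the RefSeq-based set of windows used, which does not mean that RefSeq lacks their starts. The sequences below run 5′ to 3′ along the gene and stop before the first exon base in GENCODE. They are shown because Pparg, Pdk4 and Plin2 fell with LPS and Cd36 did not pass the test, and capitals mark the core motif of nuclear receptors, AGGTCA, on either strand (TGACCT where it lies on the opposite strand). The stretches of Pparg and Pdk4 hold none.
Pparg (chr6:115362099-115362291, plus strand, before the start at 115362349): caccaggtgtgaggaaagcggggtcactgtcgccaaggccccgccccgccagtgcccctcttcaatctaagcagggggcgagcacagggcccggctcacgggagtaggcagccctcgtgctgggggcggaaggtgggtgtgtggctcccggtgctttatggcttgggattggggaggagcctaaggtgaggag
Pdk4 (chr6:5496310-5496528, minus strand, before the start at 5496278): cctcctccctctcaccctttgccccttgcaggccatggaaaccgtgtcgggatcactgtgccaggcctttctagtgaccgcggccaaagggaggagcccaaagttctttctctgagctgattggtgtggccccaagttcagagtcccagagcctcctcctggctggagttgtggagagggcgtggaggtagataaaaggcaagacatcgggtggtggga
Plin2 (chr4:86670061-86670309, minus strand, before the start at 86670059): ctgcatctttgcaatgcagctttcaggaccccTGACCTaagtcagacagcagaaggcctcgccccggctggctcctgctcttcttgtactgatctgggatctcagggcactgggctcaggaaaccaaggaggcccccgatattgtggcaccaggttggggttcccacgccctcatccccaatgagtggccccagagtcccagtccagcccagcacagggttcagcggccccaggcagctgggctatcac
Cd36 (chr5:17835897-17836146, minus strand, before the start at 17835896): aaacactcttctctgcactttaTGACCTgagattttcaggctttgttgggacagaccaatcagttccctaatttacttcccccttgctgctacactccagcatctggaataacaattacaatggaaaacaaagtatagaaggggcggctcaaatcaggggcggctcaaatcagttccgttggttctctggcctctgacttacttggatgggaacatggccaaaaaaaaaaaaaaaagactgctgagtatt
The response element of PPARγ and RXR is a direct repeat of this core with 1 base between (AGGTCA, then N for any base, then AGGTCA). It was not found in any of the 6 windows of 250 bases (3 starts of Pparg and 1 of each other gene), nor was the looser form with AGGNCA in place of each core, and across all 32851 RefSeq windows of this length 0.0335% and 0.338% held them. The single core AGGTCA, which is part of the exact repeat, was found once in the windows of Plin2 (218 to 213 bases before the start) and Cd36 (228 to 223 bases) and once before the first and second start of Pparg, in exon bases that are not printed. It was in 14% of all windows, and a match of letters is not a binding site. Because so few windows hold the repeat, its absence from these 6 does not tell whether the genes are PPAR targets. Bases outside the windows were not searched.

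The first question of the design was how AMs respond to LPS. The receptor gene itself fell in both genotypes. Pparg (ENSMUSG00000000440, chr6:115360951-115490399, plus strand, mm10) stood at 123.1, 121.1 and 121.5 CPM in the WT medium libraries of pools 16, 17 and 18, and at 30.35, 27.76 and 28.5 CPM in the WT LPS libraries of the same pools. In Scnn1b-Tg AMs of pools 17, 18 and 19 it stood at 160.1, 144.3 and 151.4 CPM in medium and at 26.96, 27.2 and 25.64 CPM with LPS. Every LPS library lay far under every medium library, the Scnn1b-Tg medium libraries were the highest of the 12, and the Scnn1b-Tg LPS libraries were the lowest. Pparg fell by 2.08 on the log2 scale with LPS in WT AMs (SE 0.0707, adjusted p = 3.03e-08, 4.22-fold lower) and by 2.51 in Scnn1b-Tg AMs (SE 0.0718, adjusted p = 6.85e-09, 5.71-fold lower). Of the 13729 genes, 310 had a lower log2 fold change than Pparg in WT AMs and 265 in Scnn1b-Tg AMs. In bulk RNA, fewer cells of a type and less RNA per cell cannot be told apart.

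**Figure D1:**
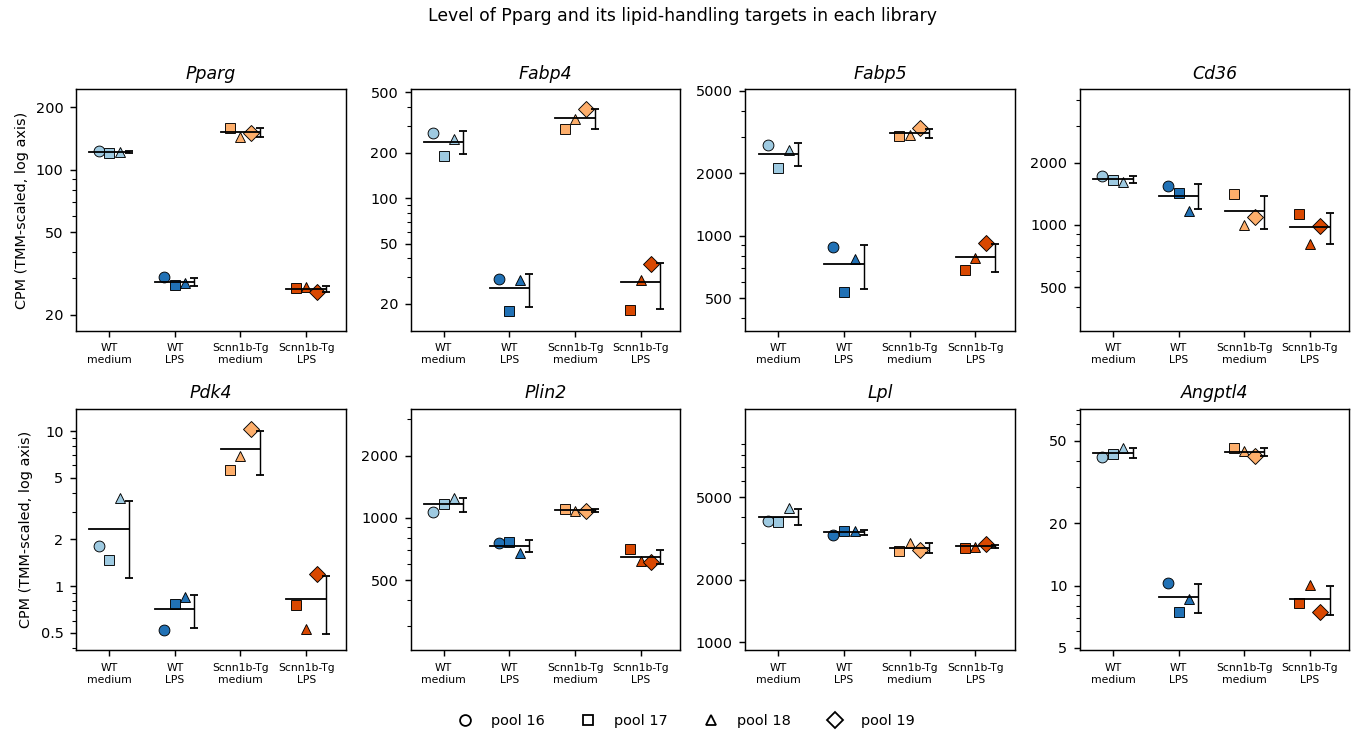
CPM (TMM-scaled, log axis) of Pparg and its 7 targets in each of the 12 libraries, by genotype and treatment; marker shapes give the pool, horizontal lines the mean and bars 1 SD of 3 libraries. Pparg, Fabp4, Fabp5, Pdk4, Plin2 and Angptl4 are lower in every LPS library than in any medium library of the same genotype, while Lpl in Scnn1b-Tg AMs stays between 2748 and 3027 CPM in all 6 libraries.

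Of the 8 genes, 7 fell with LPS in WT AMs and 0 rose, where 15.7% of all tested genes fell, 15.2% rose and 30.9% were called in either direction. In Scnn1b-Tg AMs 6 fell and 0 rose, where 17.8% of all tested genes fell, 18.8% rose and 36.7% were called in either direction. In WT AMs each of the 8 genes was lower with LPS without overlap between the libraries, where 38.7% of all tested genes did not overlap and 20.0% were lower. In Scnn1b-Tg AMs 6 were lower without overlap, where 43.8% of all tested genes did not overlap and 21.5% were lower. The median log2 fold change of the 8 was -1.71 in WT and -2.17 in Scnn1b-Tg AMs, against 0.00 and -0.02 over all tested genes. The gene that did not pass in either genotype was Cd36, and Lpl passed in WT AMs alone, though the test of the difference between genotypes did not pass (adjusted p = 0.702). With all 4 libraries numbered 17 left out, the counts were again 7 and 6.

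The fatty acid carriers of the cytosol, which bring fatty acids to the nucleus and to membranes, changed by more than Pparg in the case of Fabp4 and by a little less in the case of Fabp5. Fabp4 (ENSMUSG00000062515, chr3:10204088-10208576, minus strand), the form typical of fat cells and macrophages, was at 270.1, 190.8 and 244.9 CPM in WT medium libraries and 29.21, 18.01 and 28.89 CPM in WT LPS libraries (pools 16, 17 and 18). In Scnn1b-Tg AMs it was at 286.8, 333.6 and 387.0 CPM in medium and 18.15, 28.7 and 36.59 CPM with LPS (pools 17, 18 and 19). All medium libraries of Scnn1b-Tg AMs were above all those of WT AMs, and the LPS libraries of the genotypes overlapped. The log2 fold change with LPS was -3.23 in WT AMs (SE 0.228, adjusted p = 2.19e-06, 9.36-fold lower) and -3.62 in Scnn1b-Tg AMs (SE 0.232, adjusted p = 7.38e-07, 12.3-fold lower). Only 113 of the tested genes had a lower log2 fold change in WT AMs and 115 in Scnn1b-Tg AMs.

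Fabp5 (ENSMUSG00000027533, chr3:10012548-10016607, plus strand), a carrier with a wider range of tissues, was at 2744, 2125 and 2596 CPM in WT medium libraries and 877.6, 534.9 and 770.7 CPM in WT LPS libraries. The Scnn1b-Tg libraries were at 3021, 3066 and 3311 CPM in medium and 679.7, 778.4 and 922.7 CPM with LPS. Its libraries separated by treatment in both genotypes, with a log2 fold change of -1.77 in WT AMs (SE 0.169, adjusted p = 1.83e-05) and -1.99 in Scnn1b-Tg AMs (SE 0.17, adjusted p = 6.03e-06). LPS libraries kept 22.5% to 32.0% of the medium level of Fabp5 over the 6 pools, and 6.33% to 11.8% of that of Fabp4. Reads of Fabp5 could be shared with its pseudogenes Gm6166 (98.3% identical over 409 bases, 2.30% of the count of Fabp5) and Gm14328 (97.3% over 408 bases, 0.716%).

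Both carriers have short transcripts, with longest coding transcripts of 896 bases for Fabp4 and 987 bases for Fabp5, and both were lowest in the library numbered 17 of every group. In the 4 libraries with this number, genes under 1500 bases deviated from their group mean downward relative to genes over 4000 bases, by -0.447 to -0.193 (log2, median of short minus median of long genes), against 0.001 to 0.253 in the other 8 libraries. The part of transcript length in the levels of Fabp4 and Fabp5 was not tested. Without the libraries numbered 17 the log2 fold changes with LPS were -3.16 and -3.48 for Fabp4 and -1.71 and -1.92 for Fabp5, in WT and Scnn1b-Tg AMs respectively.

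Genes for the entry of fatty acids at the cell surface moved far less. Cd36 (ENSMUSG00000002944, chr5:17781690-17888801, minus strand), a scavenger receptor that takes up fatty acids and oxidized lipoproteins, was at 1729, 1644 and 1603 CPM in WT medium libraries and 1542, 1428 and 1168 CPM in WT LPS libraries. Levels in Scnn1b-Tg AMs were 1403, 1002 and 1095 CPM in medium and 1132, 806.5 and 990.9 CPM with LPS. The WT groups did not overlap, the Scnn1b-Tg groups did, and every pool was lower with LPS than in medium. The log2 fold change was -0.28 in WT AMs (SE 0.0984, adjusted p = 0.0539) and -0.25 in Scnn1b-Tg AMs (SE 0.0983, adjusted p = 0.0681), so that Cd36 did not pass. When the pool entered the model as a replicate block, which compares each LPS library with the medium library of its own pool, Cd36 passed in both genotypes (adjusted p = 0.0174 in WT and 0.0205 in Scnn1b-Tg AMs with a fixed block and 0.0158 and 0.0197 with a random effect). DESeq2 also called it (adjusted p = 0.0338 and 0.0471). In all, Cd36 passed in 7 of 23 alternatives in WT and 4 of 23 in Scnn1b-Tg AMs.

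Lpl (ENSMUSG00000015568, chr8:68880491-68907448, plus strand), the enzyme that frees fatty acids from lipoprotein triglyceride, was at 3856, 3815 and 4423 CPM in WT medium libraries and 3280, 3459 and 3428 CPM in WT LPS libraries. Scnn1b-Tg AMs had 2748, 3027 and 2793 CPM in medium and 2859, 2895 and 2965 CPM with LPS. WT medium libraries stood above the other 9, and the medium and LPS libraries of Scnn1b-Tg AMs overlapped. Lpl fell with LPS in WT AMs (log2 fold change -0.25, SE 0.0625, adjusted p = 0.0115), and in Scnn1b-Tg AMs the log2 fold change was 0.03 (SE 0.0625, adjusted p = 0.789, 95% interval -0.10 to 0.15). The call in WT AMs was lost without the WT LPS 18 library (adjusted p = 0.0605), without the WT medium 18 library (0.0675) and with the WT libraries fitted alone (0.0863).

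Angptl4 (ENSMUSG00000002289, chr17:33773750-33781830, minus strand), a secreted inhibitor of Lpl, changed to about the extent of Pparg rather than of Lpl. It was at 41.65, 43.05 and 46.27 CPM in WT medium libraries and 10.3, 7.442 and 8.611 CPM in WT LPS libraries. The Scnn1b-Tg libraries were at 45.85, 44.71 and 41.94 CPM in medium and 8.276, 10.1 and 7.439 CPM with LPS. The treatments separated widely and the genotypes overlapped in both. The log2 fold change was -2.31 in WT AMs (SE 0.143, adjusted p = 9.39e-07, 4.97-fold lower) and -2.36 in Scnn1b-Tg AMs (SE 0.143, adjusted p = 5.01e-07, 5.13-fold lower).

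Storage and fuel choice were represented by Plin2 and Pdk4. Plin2 (ENSMUSG00000028494, chr4:86648386-86670060, minus strand), which coats lipid droplets and is a usual measure of foam cell formation, was at 1065, 1172 and 1248 CPM in WT medium libraries and 754.9, 765.4 and 677.1 CPM in WT LPS libraries. Levels in Scnn1b-Tg AMs were 1111, 1076 and 1077 CPM in medium and 708.6, 623.5 and 615.6 CPM with LPS. No LPS library reached the lowest medium library. The log2 fold change was -0.67 in WT AMs (SE 0.0832, adjusted p = 0.000132) and -0.75 in Scnn1b-Tg AMs (SE 0.0832, adjusted p = 4.37e-05), or 1.59-fold and 1.68-fold.

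Pdk4 (ENSMUSG00000019577, chr6:5483351-5496309, minus strand), a brake on the use of glucose, was the lowest of the 8 genes per length as well as in CPM. It was at 1.827, 1.467 and 3.717 CPM in WT medium libraries and 0.519, 0.763 and 0.85 CPM in WT LPS libraries. Scnn1b-Tg AMs had 5.648, 6.923 and 10.24 CPM in medium and 0.757, 0.533 and 1.195 CPM with LPS. Scnn1b-Tg medium libraries stood above the other 9, and the LPS libraries of the genotypes overlapped. LPS libraries held 26 to 63 deposited counts of Pdk4, where a read pair was taken as about 5 counts, so its level with LPS rests on few reads. The log2 fold change with LPS was -1.64 in WT AMs (SE 0.328, adjusted p = 0.00306) and -3.17 in Scnn1b-Tg AMs (SE 0.331, adjusted p = 2.71e-05).

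Levels of different genes were compared per length, as TPM, for which counts are divided by gene length before the library is scaled to 1000000. Over all annotated exons of each gene, the order in WT medium libraries was Fabp5 (1809 ± 280 TPM), Cd36 (1195 ± 62.9), Lpl (996.1 ± 102), Plin2 (855.2 ± 70.8), Fabp4 (136.0 ± 26.7), Pparg (106.8 ± 3.68), Angptl4 (31.9 ± 2.14) and Pdk4 (1.73 ± 0.925), with overlap between the neighbours Lpl and Plin2 and between Fabp4 and Pparg. In WT LPS libraries Cd36 led with 970.7 ± 121 TPM, overlapping Lpl at 818.6 ± 31.6, and Pparg (24.73 ± 1.04) lay above Fabp4 (14.31 ± 3.66), without overlap. In Scnn1b-Tg medium libraries Fabp5 reached 2279 ± 225 TPM, and Fabp4 (193.9 ± 32.2) was above Pparg (133.8 ± 16.3) without overlap. Annotated transcripts with retained introns lengthen several of these genes, and with the longest coding transcript as length Lpl (1878 ± 178 TPM) and Plin2 (1179 ± 95.9) came before Cd36 (935.0 ± 40.2) in WT medium, Fabp4 stood at 503.9 ± 92.8 TPM, and with LPS Fabp4 (52.12 ± 12.9) was above Pparg (25.01 ± 0.819) in WT AMs. On either length Fabp5 was first and Pdk4 last in medium in both genotypes.

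The second question of the design was whether AMs of Scnn1b-Tg mice differ from WT AMs, in medium and with LPS. In medium, 1 of the 8 genes passed, Lpl, which was lower in Scnn1b-Tg AMs, where 0.16% of all tested genes were called lower and 0.262% (36 genes) in either direction. The libraries of the genotypes did not overlap for 6 of the 8 genes, where 18.4% of all tested genes did not overlap, 9.02% higher and 9.38% lower. Of these 6, Pparg, Fabp4, Fabp5 and Pdk4 were higher and Cd36 and Lpl lower in Scnn1b-Tg AMs. The median log2 fold change of the 8 was 0.15, against 0.01 over all tested genes.

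Lpl differed by a log2 fold change of -0.52 in medium (SE 0.0643, adjusted p = 0.01, 1.44-fold lower in Scnn1b-Tg AMs), by -0.48 within batch 1 and -0.61 within batch 2. Its call was kept in 17 of 22 alternatives. It was lost without the Scnn1b-Tg medium 17 library (adjusted p = 0.136), without the Scnn1b-Tg medium 19 library (0.0539), without the WT medium 18 library (0.0543), with the medium libraries fitted alone (0.0518) and without all 4 libraries numbered 17 (0.189), and in all 22 the log2 fold change stayed between -0.58 and -0.48. With LPS the log2 fold change was -0.25 (SE 0.0644, adjusted p = 0.295), with no overlap between the genotypes.

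Pparg had a log2 fold change of 0.33 in medium (SE 0.0696, unadjusted p = 0.000656 and adjusted p = 0.0897 in edgeR's test), 0.39 within batch 1 and 0.28 within batch 2. It did not pass, though DESeq2 called it (adjusted p = 0.000359). Pdk4 had the largest ratio, at 1.55 on the log2 scale (SE 0.31, unadjusted p = 0.000465 and adjusted p = 0.0851 in edgeR's test), and log2(CPM + 1) differences of 1.33 and 1.00 within the batches. It passed with DESeq2 (adjusted p = 0.000538), with counts divided by 5 (0.0418) and without the Scnn1b-Tg LPS 18 library (0.0481). Cd36 was at -0.43 (SE 0.10, unadjusted p = 0.00153 and adjusted p = 0.119 in edgeR's test), and passed with DESeq2 alone (adjusted p = 0.00838). Fabp4 and Fabp5 were at 0.37 (SE 0.217, adjusted p = 0.523) and 0.28 (SE 0.169, adjusted p = 0.536). Plin2 and Angptl4 overlapped between the genotypes, with log2 fold changes of -0.08 (95% interval -0.24 to 0.09) and 0.01 (-0.26 to 0.28).

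**Figure D2:**
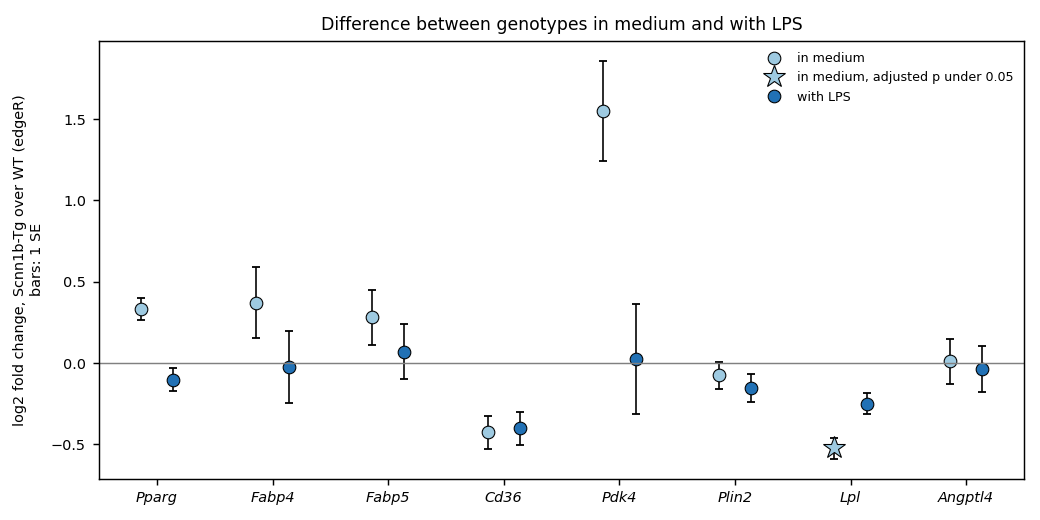
Log2 fold change of Scnn1b-Tg over WT AMs for each gene in medium (light) and with LPS (dark), with bars of 1 SE from edgeR; a star marks an adjusted p under 0.05. Lpl in medium (-0.52) is the only star, Cd36 lies at -0.43 in medium and -0.40 with LPS, and Pdk4 goes from 1.55 in medium to 0.03 with LPS.

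With LPS, 0 of the 8 genes passed between the genotypes in edgeR, where 0.051% of all tested genes were called (7 genes). At an unadjusted p under 0.05 there were 2, Cd36 and Lpl, where 6.78% of all tested genes were (931 genes), and DESeq2 called the same 2 among 146 genes. The libraries did not overlap for 3 of the 8, Pparg, Cd36 and Lpl, all lower in Scnn1b-Tg AMs, where 9.11% of all tested genes did not overlap, 5.72% higher and 3.39% lower. Cd36 was at -0.40 (SE 0.101, adjusted p = 0.295), with -0.39 and -0.38 within the batches. Its difference in medium was -0.43, with -0.265 within batch 1 and -0.614 within batch 2. Pparg was at -0.10 (SE 0.0707, adjusted p = 0.946). The other 5 genes overlapped, with log2 fold changes of -0.15 for Plin2, -0.04 for Angptl4, -0.02 for Fabp4, 0.03 for Pdk4 and 0.07 for Fabp5.

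The third question was whether the response to LPS itself differed between the genotypes. No gene passed the interaction test with edgeR (0 of 13729, 0.0% called, and 795 at an unadjusted p under 0.05), hence none of the 8. At an unadjusted p under 0.05 there were 3 of the 8, where 5.79% of all tested genes were. Pparg differed by -0.44 on the log2 scale (SE 0.0964, unadjusted p = 0.000986 and adjusted p = 0.374 in edgeR's test, 95% interval -0.62 to -0.25), that is, a larger fall in Scnn1b-Tg AMs. Pdk4 differed by -1.52 (SE 0.453, unadjusted p = 0.00676 and adjusted p = 0.6) and Lpl by 0.27 (SE 0.0884, unadjusted p = 0.0107 and adjusted p = 0.702). DESeq2 called 77 genes and 1 of the 8, Pparg (adjusted p = 0.00519).

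Because each pool gave both libraries, the response could also be read pool by pool, as log2(CPM + 1) with LPS minus that in medium. On this scale the change of a gene as low as Pdk4 is understated. Pparg changed by -1.98, -2.09 and -2.05 in WT pools 16, 17 and 18 and by -2.53, -2.37 and -2.52 in Scnn1b-Tg pools 17, 18 and 19. LPS libraries thus kept 22.9% to 24.7% of the medium level in WT pools and 16.8% to 18.9% in Scnn1b-Tg pools. The 2 sets of pools did not overlap for 4 of the 8 genes, lower in Scnn1b-Tg pools for Pparg, Fabp4 and Pdk4 and higher for Lpl, where 16.8% of all tested genes did not overlap, 7.55% lower and 9.25% higher. Fabp4 changed by -3.34 to -3.04 in WT and -3.91 to -3.37 in Scnn1b-Tg pools, Pdk4 by -1.35 to -0.48 and -2.37 to -1.92. Lpl changed by -0.37 to -0.14 in WT pools and by -0.06 to 0.09 in Scnn1b-Tg pools. A two-sided exact permutation test of 3 against 3 pools gave p = 0.1 for each of these 4 genes, the smallest it can give, and 0.2 after Benjamini-Hochberg adjustment over the 8 genes. Fabp5, Cd36, Plin2 and Angptl4 overlapped between the genotypes (exact permutation p = 0.3, 0.9, 0.6 and 0.7).

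**Figure D3:**
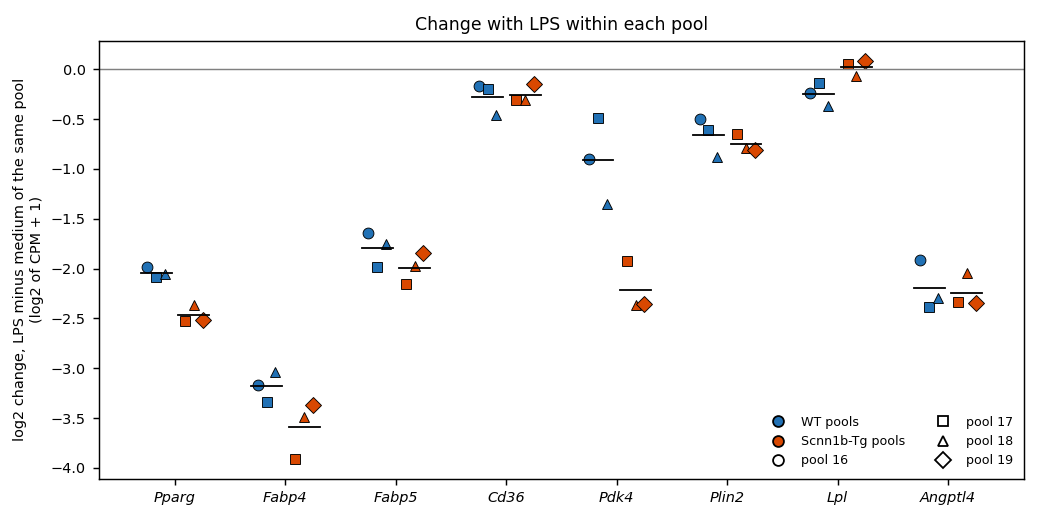
Change with LPS in each pool, as log2(CPM + 1) with LPS minus that in medium of the same pool, for WT (blue) and Scnn1b-Tg (orange) pools; shapes give the pool number and lines the mean of 3 pools. Scnn1b-Tg pools lie under WT pools for Pparg (means -2.47 and -2.04), Fabp4 (-3.59 and -3.18) and Pdk4 (-2.21 and -0.91) and above them for Lpl (0.03 and -0.25), and the 2 sets overlap for the other 4 genes.

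Profiles over the 12 libraries were then compared between genes. After each gene was centred on its own mean of log2(CPM + 1), Pparg and Angptl4 were the closest pair (root mean square difference 0.15), followed by Cd36 with Lpl (0.24) and Pparg with Fabp5 (0.28), and Fabp4 with Lpl was the most distant (1.70). Of 9100 genes with a mean of at least 5 CPM, those nearest to Pparg were Cd300a, an inhibitory receptor of myeloid cells (0.11), Kctd12b (0.13), Rcbtb2 (0.14), Bmf, a BH3-only protein of apoptosis (0.14), and Angptl4 in the fifth place (0.15). Cd300a went from 287.9 ± 5.16 to 65.31 ± 4.14 CPM with LPS in WT AMs and in Scnn1b-Tg AMs from 298.7 ± 4.04 to 62.01 ± 1.13 CPM. In the same order Fabp5 was at place 45, Fabp4 at 345, Plin2 at 606, Cd36 at 2655 and Lpl at 3604, and Pdk4 was too low to be ranked. With a pseudocount of 5 in place of 1, 2 of the 5 nearest genes were the same, and with 0.5, 4 were.

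**Figure D4:**
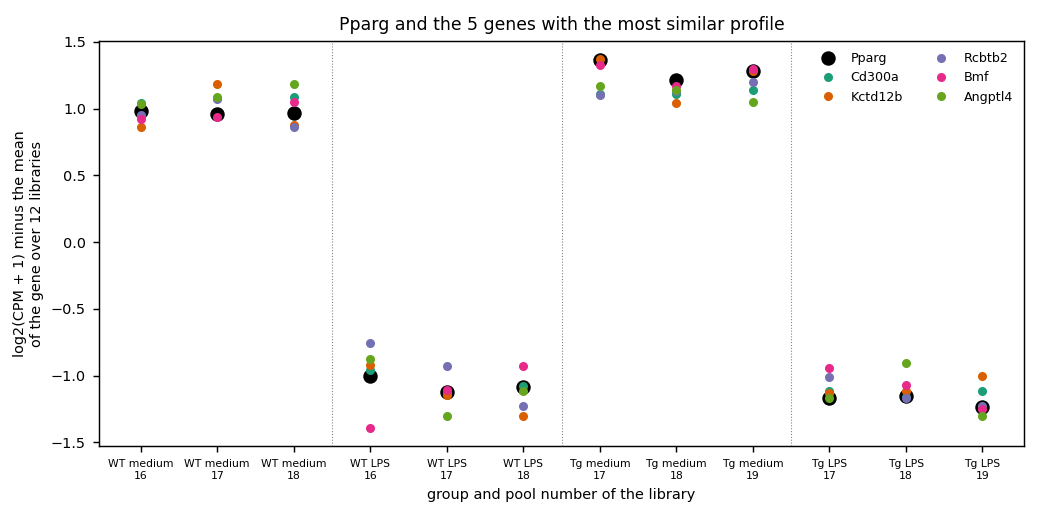
Log2(CPM + 1) minus the gene's own mean over the 12 libraries, for Pparg (large black points) and the 5 genes with the most similar profile, in each library by group and pool number. Medium libraries lie above 0 and LPS libraries below 0 for all 6 genes, with root mean square differences from Pparg of 0.11 to 0.15.

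The same comparisons were read over lists of genes around PPARγ. With LPS, 15.2% of all tested genes rose and 15.7% fell in WT AMs, the shares to set beside each list below. In Scnn1b-Tg AMs 18.8% rose and 17.8% fell. Of 12 receptors, RXR partners and coregulators 10 were tested, of which 1 rose and 3 fell with LPS in WT AMs and 1 rose and 5 fell in Scnn1b-Tg AMs, with medians of -0.25 and -0.50. Ppara and Ppargc1a were not tested, with counts at or near 0 in every group. The gene that rose was Ppard, the PPAR of many tissues (7.71 ± 0.908 to 11.19 ± 0.551 CPM in WT AMs, log2 fold change 0.54, adjusted p = 0.00335). Ppargc1b, a coactivator of mitochondrial genes, fell from 11.99 ± 1.15 to 5.46 ± 1.21 CPM (-1.13, adjusted p = 0.00112), and Ncoa1 (-0.67) and Rxrb (-0.43) fell as well. In Scnn1b-Tg AMs the same 4 genes passed in the same directions, with log2 fold changes of 0.74, -1.34, -0.91 and -0.69.

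Of 11 genes that feed into Pparg in AMs, 3 rose and 4 fell in both genotypes, with medians of -0.10 and -0.16. Tgfbr2, a TGF-β receptor, fell from 387.8 ± 55.6 to 111.3 ± 22.9 CPM in WT AMs (-1.81, adjusted p = 4.77e-06) and in Scnn1b-Tg AMs from 489.3 ± 85.5 to 106.0 ± 28.8 CPM (-2.23, adjusted p = 7.97e-07). Cebpa, a transcription factor of myeloid and fat cells, had log2 fold changes of -0.98 and -1.27. Il4ra, the IL-4 receptor chain, rose by 0.87 and 0.74, and Csf2rb, the shared chain of the GM-CSF receptor, by 0.52 and 0.41 (597.9 ± 14.3 to 856.4 ± 157 CPM in WT AMs, adjusted p = 0.00524).

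Other PPAR targets fell more often than they rose, though not as one. Of 19 tested, 3 rose and 11 fell in WT AMs and 4 rose and 11 fell in Scnn1b-Tg AMs, with medians of -0.66 and -0.69. Cidec, which fuses lipid droplets, fell from 20.35 ± 2.78 to 5.60 ± 0.586 CPM in WT AMs (-1.86, adjusted p = 1.19e-06) and in Scnn1b-Tg AMs from 17.92 ± 2.29 to 3.45 ± 0.668 CPM (-2.39, adjusted p = 1.72e-07). Ucp2, a mitochondrial carrier, had log2 fold changes of -1.68 and -1.98, and Abcg1, which exports cholesterol, of -1.07 and -1.55. Acsl1, which activates long-chain fatty acids, went the other way, from 54.49 ± 11.8 to 198.9 ± 56.9 CPM in WT AMs (1.88, adjusted p = 0.00011) and in Scnn1b-Tg AMs from 50.86 ± 8.19 to 255.3 ± 46.3 CPM (2.34, adjusted p = 1.83e-05).

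Of 12 tested genes of fatty acid uptake and activation, 6 rose and 2 fell in WT AMs and 7 rose and 3 fell in Scnn1b-Tg AMs, with medians of 0.41 and 0.47. Over all tested genes, 15.2% rose in WT and 18.8% in Scnn1b-Tg AMs. The scavenger receptor gene Msr1 rose from 29.01 ± 7.41 to 62.23 ± 11.8 CPM in WT AMs (1.10, adjusted p = 0.00629) and by 1.50 in Scnn1b-Tg AMs, and Acsl5 rose from 290.5 ± 22.1 to 531.7 ± 54.9 CPM in WT AMs (0.87, adjusted p = 9.19e-06) and by 1.19 in Scnn1b-Tg AMs. Lrp1, a receptor for lipoprotein remnants, fell from 775.0 ± 75.7 to 592.2 ± 100 CPM in WT AMs (-0.39, adjusted p = 0.0282) and in Scnn1b-Tg AMs from 1085 ± 28.7 to 551.9 ± 40.8 CPM (-0.97, adjusted p = 8.26e-05).

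Of 16 lipid droplet genes, 3 rose and 11 fell in each genotype, with medians of -0.56 and -0.62. Lpin1, a phosphatase on the way to triglyceride, fell from 89.19 ± 15.4 to 14.78 ± 4.44 CPM in WT AMs (-2.64, adjusted p = 7.5e-07) and in Scnn1b-Tg AMs from 128.2 ± 20.2 to 16.39 ± 5.29 CPM (-3.00, adjusted p = 2.08e-07). Dgat1, which makes triglyceride, had log2 fold changes of -1.15 and -1.19, and Mgll, a lipase for monoglycerides, of -1.07 and -1.24. Bscl2, the droplet scaffold seipin, had -1.17 and -1.12.

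Of 7 tested genes that process or regulate Lpl, 0 rose and 3 fell in WT AMs and 0 rose and 2 fell in Scnn1b-Tg AMs, with medians of -0.33 and -0.27. Apoe had -1.24 and -1.16, and Lmf1, which helps to fold the enzyme, had -0.33 (adjusted p = 0.0446) and -0.27 (adjusted p = 0.0812). Of 11 genes of pyruvate dehydrogenase, its kinases and its phosphatases, 1 rose and 3 fell in WT AMs and 3 rose and 4 fell in Scnn1b-Tg AMs, with medians of -0.07 and 0.03. Over all tested genes, 30.9% were called in either direction in WT and 36.7% in Scnn1b-Tg AMs. The other kinases fell as well: Pdk1 from 16.15 ± 1.75 to 6.39 ± 2.47 CPM (-1.37, adjusted p = 0.000365), Pdk2 by a log2 fold change of -0.76 and Pdk3 of -0.58 in WT AMs, and -1.39, -0.71 and -0.50 in Scnn1b-Tg AMs. The phosphatase gene Pdp1, which turns the enzyme back on, rose by 0.41 and 0.51.

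**Figure D5:**
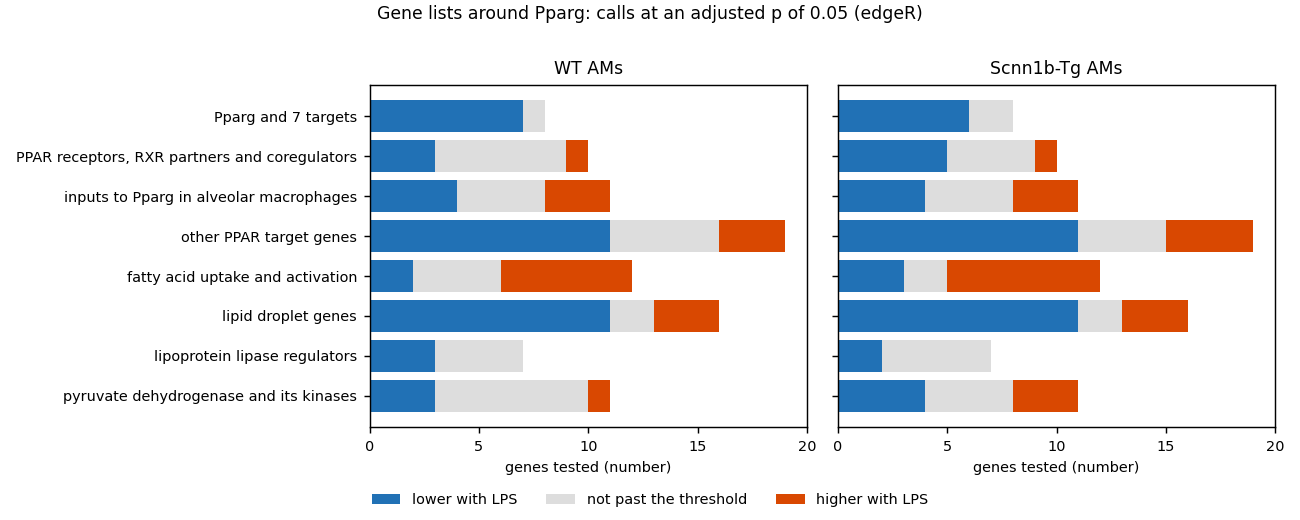
Number of tested genes in each list that fell (blue), did not pass (grey) or rose (orange) with LPS at an adjusted p under 0.05 in edgeR, in WT and Scnn1b-Tg AMs. Of Pparg and its 7 targets 7 and 6 are blue, of the 16 lipid droplet genes 11 in each genotype, and fatty acid uptake and activation is the list with more orange (6 and 7) than blue (2 and 3).

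Between the genotypes, 1 gene of these lists passed in medium: Gk, glycerol kinase, was lower in Scnn1b-Tg AMs (16.05 ± 1.69 CPM) than in WT AMs (26.16 ± 1.36 CPM, log2 fold change -0.64, SE 0.076, adjusted p = 0.01). Over all tested genes, 0.16% were called lower in medium and 0.262% in either direction. With LPS and for the interaction, 0 of the listed genes passed in edgeR, where 0.051% and 0.0% of all tested genes were called.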

How the data were processed

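RNA-seq data of 12 libraries (6 pools of AMs, each in medium and with LPS) were analysed. Per the methods of the study, the authors aligned 125 bp paired reads with HISAT2 to mm10 without strand and quantified genes with StringTie on GENCODE M20, from a low-input full-length cDNA kit. The deposited values are estimated counts per gene, whole numbers as deposited, obtained by the authors from transcript coverage and a nominal read length. Of values from 1 to 30, 55.3% took remainders of 0 or 3 on division by 5, where even spacing gives 40%. About 5 deposited counts were therefore taken as 1 read pair, although these remainders alone do not fix that number. On this assumption libraries held about 9638250 to 12179301 read pairs, so that small counts carry more error than their size implies. Sharing of reads between genes and reads of antisense genes could not be resolved.

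Gene IDs were matched to symbols with GENCODE M21 (20158 of 20551; the other 393 held 0.245% of counts). Genes were filtered with filterByExpr (count minimum 10, total minimum 15), scaled by TMM and fitted with edgeR 4.0.16 (quasi-likelihood, R 4.3.3) with terms for group and batch over all 12 libraries, and 5 contrasts were tested with Benjamini-Hochberg adjustment at 0.05. Standard errors are the absolute log2 fold change divided by the square root of F. The 95% intervals use these standard errors with a normal quantile, so they are narrower than intervals matched to the F test. Replicates are pools of different animals, 3 per genotype. For each gene the main p-values rest on an estimate of spread shared by all groups. The main fit has no term for the pool, so both libraries of a pool entered as independent. The pools pair the treatments: deviations from the group mean correlated at 0.222 to 0.546 between both libraries of each of the 6 pools. DESeq2 1.42.0, limma 3.58.1 with pools as random effect (correlation 0.327), pools as fixed block, other filters and scaling, counts divided by 5 and leaving out each library were alternatives. Exact permutation tests used scipy 1.17.1, and near-identical transcripts were sought with blastn 2.17.0. The fitting script was tested on simulated data.

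The 8 genes, the lists, the markers and the tests were chosen with earlier results of these data known. All 8 genes are named. From each list up to 4 genes per comparison are named, those past the threshold with a mean of at least 5 CPM and the largest absolute log2 fold change; the 5 genes most like Pparg were taken by the root mean square difference of centred log2(CPM + 1). Marker genes and a gene's value in the comparison that did not name it are given beside these.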

Additional observations from a re-analysis of the deposited data

How the results depend on the processing

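The falls of Pparg, Fabp4, Fabp5, Pdk4, Plin2 and Angptl4 with LPS kept their direction and passed in both genotypes under all 23 alternatives with a test. Of the 8 genes, 6 to 8 were called in WT and 6 to 7 in Scnn1b-Tg AMs when 1 library was left out. Between the genotypes in medium, 1 gene was called, against 4 with DESeq2, 2 with counts divided by 5, 0 with the medium libraries fitted alone, 0 without the libraries numbered 17 (an alternative chosen after seeing the data, like the transcript length for TPM) and 0 to 2 with 1 library left out. With LPS, DESeq2 called 2 and for the interaction 1, against 0 in both. Over all genes, 36 calls in medium became 4 to 27 without 1 library and 500 with DESeq2, 7 calls with LPS became 2 to 11 and 146, and 0 for the interaction became 0 to 1 and 77. These causes were not tested. Within batches, Pparg moved to -2.44 in Scnn1b-Tg AMs with LPS (batch 2), to 0.39 between genotypes in medium and to -0.49 for the interaction (batch 1). DESeq2 called Pparg in medium (0.33) and for the interaction (-0.44).

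Pools entered as a replicate block changed no call of the 8 genes with LPS other than that of Cd36 (log2 fold change -0.26 in Scnn1b-Tg AMs, adjusted p = 0.0205 with the fixed block), and Pparg was at -2.08 in WT and -2.51 in Scnn1b-Tg AMs. The fixed block gives no difference between genotypes, because each pool has 1 genotype. The numbers 17 and 18, shared by the genotypes, had correlations of 0.146 to 0.48, and a block on them reversed Angptl4 (0.078), Fabp4 (0.058) and Pdk4 (-0.23) between genotypes with LPS. The other reversals concerned values near 0. Fabp4 with LPS went to 0.13 without the batch term, 0.009 with pools as random effect and 0.20 without the libraries numbered 17, and Pdk4 to -0.10 and -0.071 under the last 2 of these. Angptl4 in medium went to -0.004, and Lpl in Scnn1b-Tg AMs with LPS to -0.005, without the libraries numbered 17. With 1 library left out, values that reversed ranged from -0.005 to 0.056 for Lpl in Scnn1b-Tg AMs with LPS, and between genotypes in medium from -0.14 to 0.033 for Plin2 and -0.05 to 0.053 for Angptl4. Between genotypes with LPS they ranged from -0.19 to 0.21 for Fabp4, -0.078 to 0.25 for Fabp5, -0.21 to 0.31 for Pdk4 and -0.16 to 0.093 for Angptl4, and for the interaction from -0.083 to 0.11 for Cd36 and -0.18 to 0.10 for Angptl4. Differences of pool changes ranged from -0.071 to 0.075 for Cd36, -0.19 to 0.00 for Plin2 and -0.14 to 0.10 for Angptl4. Depth limited Pdk4 the most, with 26 to 63 deposited counts in LPS libraries.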

Other observations

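Markers of AM identity did not move as one with LPS. Of 9 markers, 2 rose and 4 fell in WT AMs and 2 rose and 5 fell in Scnn1b-Tg AMs. Over all tested genes, 15.2% rose and 15.7% fell in WT AMs, and 18.8% rose and 17.8% fell in Scnn1b-Tg AMs. Marco, a scavenger receptor, rose from 631.1 ± 38.6 to 1255 ± 112 CPM in WT AMs (log2 fold change 0.99, SE 0.269, adjusted p = 0.017) and in Scnn1b-Tg AMs from 511.9 ± 186 to 1574 ± 582 CPM (1.62, SE 0.273, adjusted p = 0.000807). Car4, a carbonic anhydrase, rose by 1.50 and 1.30 on the same scale. Mrc1, the mannose receptor, went the other way, from 256.6 ± 57.1 to 94.49 ± 29.5 CPM in WT AMs (-1.46, adjusted p = 1.53e-05) and with a log2 fold change of -1.72 in Scnn1b-Tg AMs, as did Ear2, an eosinophil-type ribonuclease (-1.82 and -2.10). Siglecf had -3.38 and -4.19, beside -2.08 and -2.51 for Pparg. Krt79, a keratin gene, fell in WT AMs from 56.6 ± 8.3 to 8.57 ± 0.845 CPM (-2.78, SE 0.555, adjusted p = 0.00307). Chil3 did not pass in either genotype (-0.32 and -0.35). These markers were taken from the list fixed for the check of cell type, with results of these data known.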
